A study of Rattus norvegicus with 6 samples.

Results

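Goblet cell and mucin genes were compared between the jejunum of rats kept under heat and shake stress and that of control rats. The list held 8 genes, and 3 of them were matched to probes on the array. Tff3 had 2 probes, and Agr2 and Spdef had 1 probe each, so that 4 of the 41012 probes of the array were examined. They were found through the RefSeq transcript accession that the array design gives for each probe. No probe carried an accession that the RefSeq gene table pairs with Muc2, Muc13, Muc1, Fcgbp or Galnt12, so these 5 genes were not analysed here. The table named 17512 of the 41012 probes, and a probe for these genes under an accession it does not hold would have been missed. Values for the mucins of the list are therefore not given.

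Goblet cells are secretory cells of the intestinal epithelium that fill the mucus layer over the villi and crypts. Their main gel-forming mucin is Muc2, which is folded and linked in the endoplasmic reticulum, decorated with O-linked glycans in the Golgi apparatus and stored in granules. Tff3 encodes trefoil factor 3, a small secreted peptide packed with the mucin and known for its part in epithelial repair. Agr2 encodes a protein disulfide isomerase of the endoplasmic reticulum that assists mucin folding. Spdef encodes an ETS family transcription factor that drives goblet cell maturation.

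The animals were male Sprague-Dawley rats aged 6 weeks, weighing 200 ± 20 g. Rats of the S3d group were shaken at 0.1 g in a chamber at 35°C for 2 h per day on 3 days, and rats of the control group were kept at 25°C without it. Each of the 3 samples of a group was total RNA pooled from 3 rats, hybridised to a 1-colour Agilent array. The labels give 10 rats per group. The methods give a smaller number, at which the pools of a group would share animals, so the samples may not be independent. The tissue was a washed and minced piece of whole jejunum, so fewer goblet cells and less RNA per goblet cell cannot be told apart.

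Both groups were hybridised on slides of their own and scanned at different times, so slide and group cannot be told apart. The signal at the 75th percentile was 414.75 to 429.96 for the arrays labelled control. For the arrays labelled S3d it was 1457.7 to 1558.3, which is 3.6 times higher on average. The columns of the deposited normalized table followed the scanner file of the other group for all 6 arrays (Spearman's rho 0.99999, against 0.941 to 0.948 with the file of their own sample). The scanner files and the table therefore carry opposite labels for the same arrays, and no sample was reassigned. Signed values follow the scanner labels and are S3d minus control, so a direction read from the table's labels is mostly the opposite one. Agr2 and Clca1, whose sign also turned with the scaling, had the same sign in the table as at 75th percentile scaling. The directions that the study gives for its arrays and its RT-PCR run, for nearly all genes compared, with the table's labels, so the directions printed here oppose those of the study.

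The array labelled S3d replicate 1 stood apart from the others. It carried transcripts of the exocrine pancreas, the organ that makes digestive enzymes. All 16 genes for pancreatic digestive enzymes and secretory proteins found on the array, chosen after their values were seen, were between 7.80 and 14.09 log2 units higher there than on either other array labelled S3d. Cpb1, which encodes a carboxypeptidase, was at 8.42 on this array and between -7.96 and -5.68 on the other 5. Results for the goblet cell genes are therefore also given without it.

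The promoters of the 3 measured genes are shown because these genes are the ones whose signal could be compared. Each line gives the 250 bases before the start of the gene in the RefSeq annotation of GRCr8, 5′ to 3′ on the strand of the gene. The Tff3 window is chr20:9199334-9199583 on the minus strand, the Agr2 window is chr6:58435658-58435907 on the plus strand, and the Spdef window is chr20:5787686-5787935 on the minus strand. Capitals mark matches to the motifs named after the lines.
Tff3: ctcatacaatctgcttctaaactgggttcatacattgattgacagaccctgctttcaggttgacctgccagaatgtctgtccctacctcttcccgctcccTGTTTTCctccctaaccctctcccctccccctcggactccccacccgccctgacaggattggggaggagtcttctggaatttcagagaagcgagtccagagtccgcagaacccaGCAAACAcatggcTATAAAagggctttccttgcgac
Agr2: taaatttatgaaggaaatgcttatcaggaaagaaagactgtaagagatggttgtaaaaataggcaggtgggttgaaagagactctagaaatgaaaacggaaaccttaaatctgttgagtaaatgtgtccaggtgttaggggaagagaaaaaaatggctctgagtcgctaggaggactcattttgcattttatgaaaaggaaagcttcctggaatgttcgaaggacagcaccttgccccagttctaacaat
Spdef: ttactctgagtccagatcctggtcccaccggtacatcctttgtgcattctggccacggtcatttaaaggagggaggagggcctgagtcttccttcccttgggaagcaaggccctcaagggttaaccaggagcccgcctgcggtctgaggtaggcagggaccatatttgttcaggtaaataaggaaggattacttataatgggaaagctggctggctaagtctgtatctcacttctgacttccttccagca

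These motifs were searched on both strands: TATAAA, the core of a TATA box; TGTTTNC, a core bound by forkhead factors; and CGGAT, an ETS core bound by the Spdef protein. The Tff3 window held TATAAA from base 23 to base 18 before the start, a letter string found in 12.9% of the 33469 windows of the same length. It held the forkhead core at 2 places, from base 150 to base 144 and, on the opposite strand, from base 36 to base 30. This core was found in 18.3% of all windows. CGGAT, present in 13.7% of all windows, was in none of the 3. The Agr2 and Spdef windows held no match to any of the motifs. A match describes the letters and does not show that a factor binds there.

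All 3 measured goblet cell genes had a lower signal on the arrays labelled S3d at 75th percentile scaling, whereas Agr2 had not after quantile normalization, and unscaled Agr2 and Spdef were higher there. Tff3 fell by 2.13 and 2.34 on the log2 scale on its 2 probes, Spdef fell by 1.10 and Agr2 fell by 0.67. Levels here are log2 signals relative to the 75th percentile of the same array, and a probe was called changed at an adjusted p under 0.05 (limma, Benjamini-Hochberg over 31367 tested probes) and a fold of at least 1.5. All 4 probes were called, all of them lower. By the same rule, 52.5% of all tested probes were called, with 29.2% of all tested probes higher and 23.3% lower, so a call by itself was common on these arrays. Median centring moved that split to 23.4% higher and 29.6% lower, and all 4 probes were called lower there too. All 4 probes were well above background on all 6 arrays and saturated on none.

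**Figure D1:**
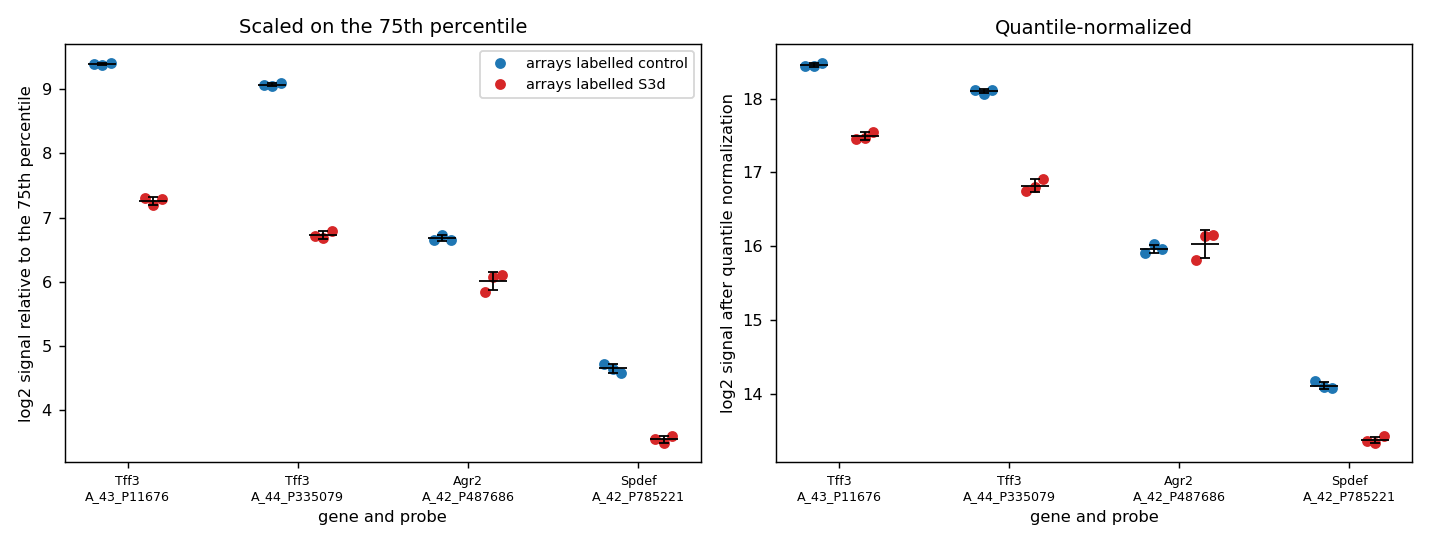
Log2 signal of the 4 goblet cell probes (x axis) on each array, scaled on the 75th percentile (left) and quantile-normalized (right), with points for arrays, long lines for the mean and bars for the SD (n = 3 per group). Both Tff3 probes and Spdef are separated between the groups in both panels, whereas the Agr2 points are separated on the left and overlap on the right.

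Tff3 was among the brightest probes of the jejunum arrays. Its brighter probe, A_43_P11676, was at 9.40, 9.38 and 9.40 on the arrays labelled control and at 7.31, 7.20 and 7.28 on the arrays labelled S3d. The lowest control array lay above the highest S3d array by far more than the spread within either group, which was 0.014 (SD, n = 3) for control and 0.060 (SD, n = 3) for S3d. This was a 4.38-fold lower level, with a log2 fold change of -2.13 (standard error 0.062, 95% confidence interval -2.28 to -1.98) and an adjusted p of 1.0e-05 (limma). Ordered by scaled signal, this probe held ranks 16, 16 and 14 in the control group, and ranks 86, 84 and 75 in the S3d group.

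The dimmer Tff3 probe, A_44_P335079, gave the same picture. It was at 9.07, 9.05 and 9.09 on the arrays labelled control and at 6.72, 6.68 and 6.80 on the arrays labelled S3d. Again the groups did not overlap. This was a 5.05-fold lower level, with a log2 fold change of -2.34 ± 0.062 (standard error) and an adjusted p of 9.5e-06 (limma). Its rank went from 30, 33 and 30 to 208, 196 and 172. Both probes carry the same transcript accession, so they are repeat measurements of 1 gene.

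Tff3 was lower on the arrays labelled S3d even before any scaling. The processed signal of the brighter probe was 280012, 284158 and 291191 in the control group. It was 231493, 228272 and 242670 in the S3d group, a difference of 17.9% between the means. That of the dimmer probe was 223009, 226644 and 235062 against 153856, 159986 and 173503, a difference of 28.8%. The arrays labelled S3d were the brighter ones, and without scaling 91.1% of all tested probes were called higher there and 1.07% lower. Among probes of a mean level above 8, where the brighter Tff3 probe lay, 9.43% were lower at any size. This share was 6.59% between 6 and 8, where the dimmer Tff3 probe lay. The unscaled log2 fold changes of Tff3 were -0.28 and -0.49 (adjusted p = 0.0047 and 0.00065, limma), both under the 1.5-fold minimum.

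Agr2, the mucin-folding isomerase, differed least. Its probe, A_42_P487686, was at 6.65, 6.74 and 6.65 on the arrays labelled control, against 5.85, 6.07 and 6.11 on the arrays labelled S3d. The groups did not overlap, and S3d replicate 1 was the lowest array. The log2 fold change was -0.67 (standard error 0.089, 95% confidence interval -0.89 to -0.45, adjusted p = 0.00080, limma), a 1.59-fold lower level. The probe ranked 438, 398 and 423 on the arrays labelled control, and its ranks of 470, 364 and 358 on the arrays labelled S3d lay on both sides of these. Its unscaled signal ranged from 41581 to 45595 in the control group and from 83952 to 107671 in the S3d group.

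Spdef, the goblet cell transcription factor, was at this scaling lower on every array labelled S3d than on any array labelled control. Its probe, A_42_P785221, was at 4.73, 4.64 and 4.59 on the arrays labelled control and at 3.56, 3.49 and 3.60 on the arrays labelled S3d. The log2 fold change was -1.10 (standard error 0.070, 95% confidence interval -1.28 to -0.93, adjusted p = 4.2e-05, limma), a 2.15-fold lower level. Its rank was 1347 to 1419 in the control group and 2005 to 2100 in the S3d group. Its unscaled signal was higher on the arrays labelled S3d (17177 to 18889, against 10330 to 10999), as for most probes.

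The groups of all 4 probes were free of overlap at this scaling, which was true of 78.9% of the probes measured on all 6 arrays. Without S3d replicate 1, the log2 fold changes were -2.15 and -2.33 for Tff3, -0.59 for Agr2 and -1.11 for Spdef, and all 4 probes were called, with adjusted p up to 0.0012 (limma). Each value was within 0.1 log2 units of the value over all 6 arrays.

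The scaled difference depended on how bright a probe was. Among the 1215 tested probes with a mean level between 4 and 6, where Spdef lay, the median log2 fold change was -0.50. It was -0.89 among the 455 probes between 6 and 8, where Agr2 and the dimmer Tff3 probe lay, and -1.32 among the 53 probes above 8, where the brighter Tff3 probe lay. In these ranges 76.3%, 92.7% and 98.1% of the probes were lower on the arrays labelled S3d. Agr2 was close to the median of its range. Both Tff3 probes lay below the 10th percentile of theirs (-1.58 and -1.79), and Spdef lay between the median and the 10th percentile (-1.40) of its range.

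**Figure D2:**
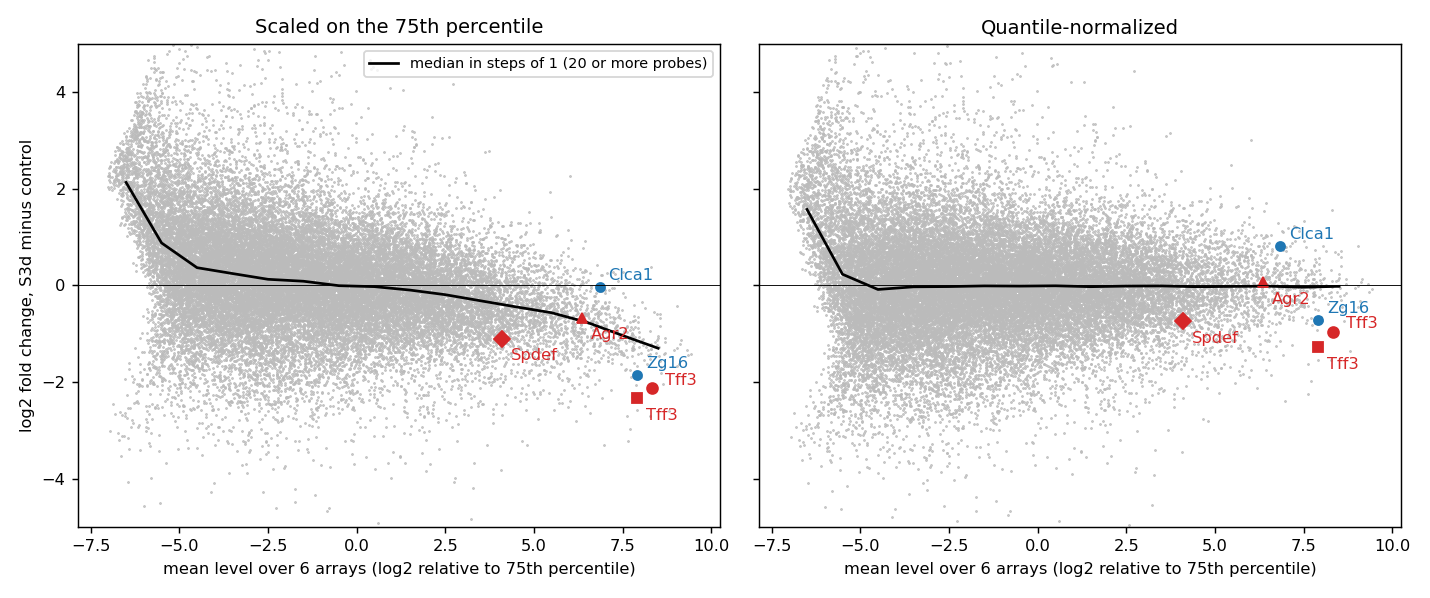
Log2 fold change of each tested probe (y axis) against its mean level over the 6 arrays (x axis), at 75th percentile scaling (left) and after quantile normalization (right), with the running median as a black line. The left median slopes down with brightness and the right one is flat above a level of -5; Tff3 and Spdef lie below the line in both panels, and Agr2 lies near it.

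Quantile normalization, which gives every array the same distribution of signals, removed this slope and left a median of 0.01 over all tested probes. Tff3 and Spdef were called lower there too, and Agr2 was not. The brighter Tff3 probe was at 18.44, 18.44 and 18.48 on the arrays labelled control and at 17.45, 17.46 and 17.55 on the arrays labelled S3d, a log2 fold change of -0.96 (95% confidence interval -1.11 to -0.81, adjusted p = 5.1e-05, limma). The dimmer probe changed by -1.28 (adjusted p = 3.2e-05). Spdef was at 14.17, 14.08 and 14.07 against 13.35, 13.34 and 13.42, a log2 fold change of -0.74 (95% confidence interval -0.89 to -0.58, adjusted p = 0.00014). Each of these sizes was smaller than at 75th percentile scaling.

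Agr2 was at 15.90, 16.02 and 15.96 on the arrays labelled control and at 15.81, 16.13 and 16.15 on the arrays labelled S3d after quantile normalization. The groups overlapped, with S3d replicate 1 below all control arrays and the other S3d arrays above them. The log2 fold change was 0.07 (95% confidence interval -0.20 to 0.34, adjusted p = 0.61, limma). With S3d replicate 1 left out and the other 5 arrays normalized alone, Agr2 was at 0.18 (adjusted p = 0.070), whereas Tff3 (-0.95 and -1.27) and Spdef (-0.73) were called lower. After quantile normalization 3 of the 4 probes were called, against 48.6% of all tested probes, 24.3% lower. The groups of 3 probes did not overlap, against 76.2% of all probes.

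The deposited table, read by its own labels, gave the other direction for Tff3 and Spdef. Tff3 was at 0.88 and 1.23, Spdef was at 0.73 and Agr2 was at -0.08, which was not called (adjusted p = 0.56, limma). The table called 48.2% of all probes. With normexp background correction of the median signals, none of the 4 probes was called. Tff3 was at -1.62 and -1.64 (adjusted p = 0.075 and 0.064), Spdef was at -0.45 (adjusted p = 0.44) and Agr2 was at -0.10 (adjusted p = 0.87). Under that correction the median of all tested probes was -0.68 and 5.59% of them were called.

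**Figure D3:**
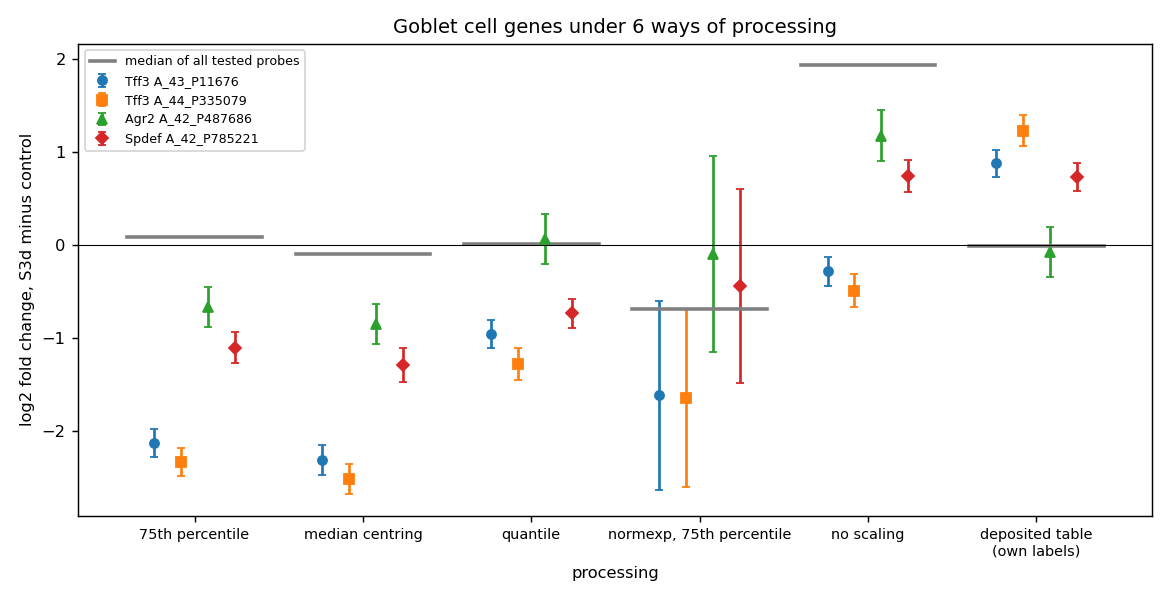
Log2 fold change of the 4 goblet cell probes (y axis, points with 95% confidence intervals) under 6 ways of processing (x axis), with the median of all tested probes as a grey line. Both Tff3 probes lie below the grey line in each processing except the deposited table, whose labels run the other way, and Agr2 lies on the grey line after quantile normalization.

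The signal of very bright spots was taken from the low-gain scan of the array and scaled up. This was so for Agr2 and for both Tff3 probes on all 6 arrays, and for Spdef on none. The share of such spots was 2.12% to 2.2% on the arrays labelled control and 4.59% to 4.8% on the arrays labelled S3d. The part of this scaling in the Tff3 and Agr2 differences was not tested.

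Other secreted mucus and goblet cell genes moved in both directions. Of 18 listed genes, 9 were matched to probes and tested, of which 4 were called higher and 2 lower. The 4 include Clca4l, which was not well above background on any array labelled control and passed the filter only through the S3d group. Their median log2 fold change was 0.11, against 0.08 over all tested probes. After quantile normalization 5 were called higher and 2 lower, with a median of 0.81. Over all tested probes, 29.2% were called higher and 23.3% lower at 75th percentile scaling, and 24.2% and 24.3% after quantile normalization. Zg16, a lectin-like protein of mucus granules, fell by 1.86 (adjusted p = 1.9e-05, limma), and by 0.71 after quantile normalization. It was at 8.77, 8.84 and 8.91 on the arrays labelled control and at 7.12, 6.95 and 6.87 on the arrays labelled S3d. The groups did not overlap at either scaling.

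Ern2, an endoplasmic reticulum stress sensor of mucus-secreting cells, changed by -1.13 (adjusted p = 6.2e-05, limma) and by -1.26 after quantile normalization. Tff1, a trefoil factor best known from the stomach, had the opposite sign, at 1.68 (adjusted p = 0.0011), and at 1.60 after quantile normalization. Slc12a8, a membrane transporter, was higher by 0.94 (adjusted p = 0.00012), and by 0.99 after quantile normalization.

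Clca1 and Tff2 were singled out after their values were seen. Clca1, an abundant protease of the intestinal mucus, was at 6.84, 6.61 and 7.14 on the arrays labelled control and at 6.83, 6.78 and 6.88 on the arrays labelled S3d. At this scaling its groups overlapped, and the log2 fold change of -0.03 did not pass (adjusted p = 0.86, limma), where probes of its brightness had a median of -0.89. After quantile normalization it was called higher, at 0.81 (adjusted p = 0.0027). Clca1 and Tff3, both products of goblet cells, thus had values of opposite sign after quantile normalization. By the deposited table's own labels Clca1 was called lower, at -0.83 (adjusted p = 0.0024, limma).

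Tff2, a trefoil factor of gastric and duodenal glands, was at 0.11, 0.80 and 0.82 on the arrays labelled control and at 5.45, -1.62 and -1.78 on the arrays labelled S3d. The high value was that of S3d replicate 1, the array with pancreatic transcripts. The log2 fold change was 0.11 (adjusted p = 0.96, limma) over all 6 arrays and -2.28 (adjusted p = 0.00083) without it.

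**Figure D4:**
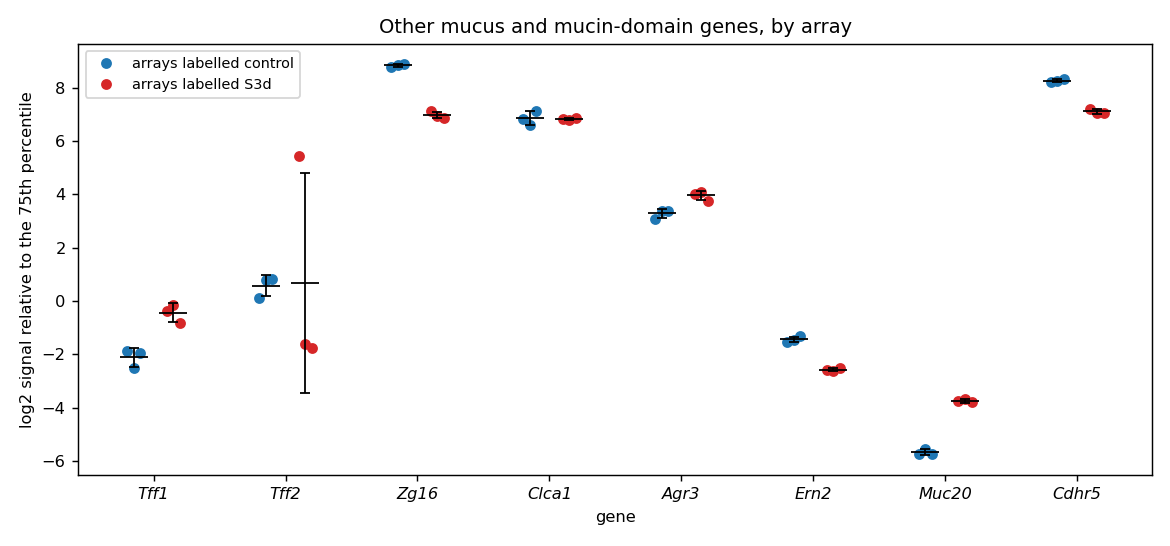
Level of 8 other mucus and mucin-domain genes (x axis) on each array, as log2 signal relative to the 75th percentile (y axis), with points for arrays, lines for the mean and bars for the SD (n = 3 per group). Zg16, Ern2 and Cdhr5 are lower and Tff1, Agr3 and Muc20 higher on the arrays labelled S3d, Clca1 overlaps, and Tff2 has 1 array far above the rest.

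Transmembrane mucins, which anchor the glycocalyx of the epithelial surface, were seldom matched to probes. Of 10 listed genes 3 were matched and 2 were tested, since Muc15 was not well above background on any array. Cdhr5, a mucin-domain cadherin of the brush border, was lower, at -1.15 (adjusted p = 4.3e-05, limma), but was at -0.05 (adjusted p = 0.45) after quantile normalization. Muc20, named after its values were seen, was at -5.74, -5.54 and -5.74 in the control group and at -3.77, -3.67 and -3.80 in the S3d group. It was well above background on 2 of the 3 arrays labelled control, so it passed the filter on dim probes only through the group where it was high, and its difference of 1.93 has no independent test.

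Among the transcription factors and Notch pathway genes that set the goblet cell lineage, 11 of 15 were tested, of which 1 was called higher and 4 lower, with a median of -0.30. The counts were also 1 and 4 after quantile normalization, with a median of -0.17. Of all tested probes 52.5% were called at 75th percentile scaling and 48.6% after quantile normalization, so these genes were not called more often. Elf3, an epithelial ETS factor, changed by -1.28 (adjusted p = 0.00031, limma) at both scalings. Notch1, a receptor whose signal favours absorptive over secretory fate, changed by -0.92 (adjusted p = 0.0043), and Dll1, a ligand of it, by -0.65 (adjusted p = 0.0021). Gfi1, a repressor that acts in secretory progenitors, was higher by 0.79 (adjusted p = 0.00023). Under quantile normalization these were at -1.40, -0.71 and 0.74. Foxa2, Foxa3 and Klf4, factors of goblet cell differentiation named after their values were seen, were at 0.06, -0.15 and -0.30 and were not called.

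Enzymes that build the O-glycans of mucins had values in both directions, and their calls were about as frequent as the 52.5% over all tested probes. GalNAc transferases add the first sugar, and 8 of 15 were tested, of which 1 was called higher and 3 lower, with a median of -0.16, and with the same counts after quantile normalization. Galnt7 was higher by 1.04 (adjusted p = 0.00016, limma), whereas Galnt2 and Galnt11 were lower, at -0.96 (adjusted p = 0.0016) and -0.94 (adjusted p = 0.00012). These were at 1.00, -0.59 and -0.89 after quantile normalization. Of 19 enzymes that extend or cap the glycans, 13 were tested, with 4 called higher and 4 lower at both scalings and a median of -0.08. These counts include Galnt10, called lower with its spot on S3d replicate 2 left out as an outlier, and B3gnt6, called higher. They also include Fut2, called higher at 0.74 by its brightest probe, while its other probe was at -0.475.

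C1galt1, the core 1 synthase that extends the first sugar, had the largest difference of the O-glycan enzymes called. It was at 3.63, 3.29 and 3.06 on the arrays labelled control and at 0.36, 0.43 and 1.23 on the arrays labelled S3d. The groups did not overlap, and the log2 fold change of -2.65 ± 0.27 (standard error) had an adjusted p of 0.00026 (limma). It was -2.51 after quantile normalization. Its chaperone C1galt1c1 was lower by its brightest probe, at -0.91 (adjusted p = 0.00030), while its other probes were at 0.13 and -0.33. Gcnt3, which makes branched cores, was at -0.89 (adjusted p = 0.0032) and at -0.44 (adjusted p = 0.058) after quantile normalization. St6galnac2, a sialyltransferase that caps the glycan, was higher by 0.94 (adjusted p = 6.4e-05), and by 0.81 after quantile normalization. B3gnt6, the core 3 synthase, also named after its values were seen, was not well above background on any array labelled control. It was at least 1.86-fold higher on the arrays labelled S3d, through which alone it passed the filter on dim probes. Unscaled, where most probes were higher on the arrays labelled S3d, the values of Ern2, Cdhr5, Elf3, Notch1, Dll1, Galnt2, Galnt11, C1galt1c1 and Gcnt3 were above 0, and those of Zg16 and C1galt1 were not.

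**Figure D5:**
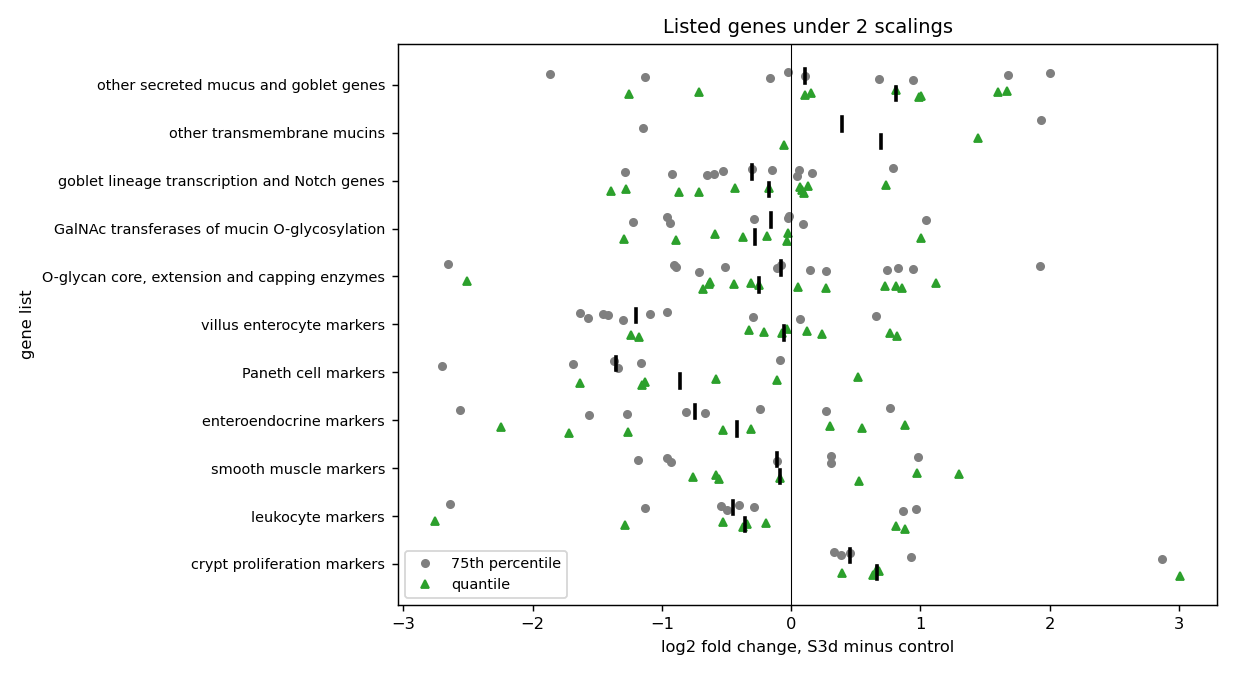
Log2 fold change of each tested gene of the lists of mucus genes and cell type markers (x axis), by list (y axis), at 75th percentile scaling (grey circles) and after quantile normalization (green triangles), with the list median as a bar. The enterocyte median moves from -1.20 to -0.05 between the scalings, while the Paneth cell median moves from -1.35 to -0.86.

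At 75th percentile scaling the markers of enterocytes, Paneth cells and enteroendocrine cells were mostly lower on the arrays labelled S3d, and those of the proliferating crypt were not. Of 10 tested villus enterocyte markers 7 were called lower and 1 higher, with a median of -1.20. Their summed level relative to the 75th percentile was 3450 to 3846 in the control group and 1478 to 1525 in the S3d group. Over all tested probes 23.3% were called lower and 29.2% higher. Fabp1, Fabp2, Apoa1 and Apoa4 lay above a mean level of 8, where 98.1% of tested probes were lower (median -1.32). After quantile normalization 2 of the 10 markers were called higher and 2 lower, with a median of -0.05. Over all tested probes it was 24.2% and 24.3%. Fabp1 and Apoa4, which serve fat absorption, were at -1.64 and -1.42 and, after quantile normalization, at -0.33 and -0.07. Neither was called there. Slc5a1, the sodium-glucose cotransporter, was at -1.57 and was still called lower after quantile normalization, at -1.24 (adjusted p = 0.00033, limma). Treh was called lower at both scalings, at -1.30 and -1.17. Lct was called higher at both, at 0.66 and 0.77, and its other probe was at 0.25 at 75th percentile scaling. Anpep was at 0.07 and was called higher after quantile normalization, at 0.82.

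Paneth cell markers, from a granule-forming cell of the crypt base, were called lower for 5 of 6 tested genes and higher for none. Of all tested probes 23.3% were called lower and 29.2% higher. Defa6, Defa24 and Reg3g lay between the mean levels 6 and 8, where 92.7% of tested probes were lower at any size. The summed level of the Paneth cell markers was 1075 to 1159 against 306 to 572, and 3 of the 6 were lower after quantile normalization. Enteroendocrine markers were lower for 5 of 8 and higher for 1, with summed levels of 140 to 152 against 87.2 to 95.1, and after quantile normalization for 3 and 1. Cck, a gut hormone, was at -2.56, and at -2.24 after quantile normalization. Proliferation and stem cell markers of the crypt, below called proliferation markers, were higher for 2 of 5 and lower for none. Their summed levels were 19.4 to 20.0 against 31.8 to 33.3. The 2 were Lgr5 and Olfm4, while Pcna, Ccnb1 and Mcm2, at 0.33, 0.46 and 0.38, were not called. The other probes of Pcna and Mcm2 were at 1.22 and 1.84. After quantile normalization 3 markers were higher and none lower, with Pcna and Ccnb1 called and Lgr5 not. Olfm4, a marker of crypt base cells, was higher by 2.87, and by 3.01 after quantile normalization.

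Smooth muscle markers were higher for 1 and lower for 3 of 7, with summed levels of 144 to 173 against 126 to 147. After quantile normalization this balance turned, with 2 higher and 1 lower. Leukocyte markers were higher for 2 and lower for 2 of 8, with summed levels of 20.8 to 27.9 against 17.0 to 19.6. The counts were also 2 and 2 after quantile normalization. Ptprc, called lower, was at -2.64 by its brightest probe, while its other probes were at 0.69 and -0.53. Calls in both lists were about as frequent as the 52.5% over all tested probes at 75th percentile scaling. Defa5, a Paneth cell defensin, was not well above background on any array. Without S3d replicate 1 the counts were 0 higher and 7 lower for enterocyte, 0 and 4 for Paneth cell, 1 and 5 for enteroendocrine, 1 and 3 for smooth muscle, 1 and 2 for leukocyte and 1 and 0 for proliferation markers, and 4 and 3 for the other secreted mucus genes. The part of these other cell types in the goblet cell differences was not tested.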

How the data were processed

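Each of the 6 arrays was a 1-colour Agilent rat array, extracted with Agilent Feature Extraction 10.7 (per the submitters' notes). The authors deposited the scanner files, which hold processed intensity per spot, background-subtracted by that software, and a table of log2 values normalized in a way not given in the sources used here. Control spots and spots marked as outliers were left out, spots of a probe were averaged, and the log2 processed intensity was taken relative to the 75th percentile of the array (R 4.3.3, limma 3.58.1). The 31367 tested probes were those that 1 group or both measured well above background on each of its 3 arrays. Groups came from the sample titles. Nothing says how the pools were drawn, so p-values measure the spread between these samples. Only 6 arrays limit the precision.

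Accessions were matched to symbols through the RefSeq table of GRCr8, which named 17512 of the 41012 probes. The brightest probe stood for a gene in list counts. Outside the marker lists, up to 4 called genes per list with the largest absolute change and well above background on all arrays were named. Of the marker lists, only some of the genes that this rule gives were named. Other genes were named after their values were seen. A planned search for genes most like Muc2 could not be made, since no probe was matched to it. The members and lists were chosen with earlier results of these data known. Also tried were normexp correction (offset 50, median signals), median centring, quantile normalization, unscaled signals, other filters, outlier spots kept, the deposited table, an intensity trend, a replicate block, the methods' analysis of variance and each array left out. The fit was tested on simulated data.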

Additional observations from a re-analysis of the deposited data

How the results depend on the processing

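Leaving out each array in turn kept all calls of the 3 genes and 4 probes, with 3 to 3 genes and 4 to 4 probes called. The ranges were -2.154 to -2.096 and -2.37 to -2.312 for the Tff3 probes, -0.7204 to -0.589 for Agr2 and -1.138 to -1.066 for Spdef. Counts of genes called then ran from 1 to 2 for proliferation, 5 to 6 for enteroendocrine, 4 to 4 for GalNAc transferases, 3 to 5 for lineage, 3 to 5 for leukocyte, 8 to 8 for O-glycan, 5 to 7 for secreted mucus, 2 to 2 for transmembrane mucin, 4 to 5 for Paneth, 4 to 4 for smooth muscle and 7 to 8 for enterocyte genes. Clca1 ran from -0.1554 (without control replicate 2) to 0.1104 (without control replicate 3), and Tff2 from -2.277 (without S3d replicate 1) to 1.336 (without S3d replicate 3), with -0.1264 without control replicate 1.

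Quantile normalization turned Agr2 (0.0666) and Clca1 (0.8086) and called 1 transmembrane mucin, 4 enterocyte and 3 Paneth genes. With S3d replicate 1 also left out, chosen after seeing the data, Agr2 was at 0.1803, Clca1 at 0.8613 and Tff2 at -2.34, with 1 transmembrane mucin, 3 enterocyte and 3 Paneth genes called. Median centring gave Tff2 -0.07817, 7 leukocyte genes and 1 proliferation gene. The share of calls that were higher on S3d was 55.7% at 75th percentile scaling, 44.2% under median centring, 98.8% without scaling and 31.1% with normexp. The probes well above background on all 6 arrays held 1 called transmembrane mucin.

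Without scaling, which moved the median of all probes to 1.93, 2 of the 4 probes were called: Agr2 (1.176) and Spdef (0.7411) were higher, and Tff3 was at -0.2845 and -0.492. Against 92.1% of all tested probes, the calls were 10 lineage, 8 GalNAc transferase, 13 O-glycan, 5 enterocyte, 2 Paneth, 7 smooth muscle, 8 leukocyte and 5 proliferation genes. Clca1 (1.818), Ern2 (0.714), Cdhr5 (0.6999), Elf3 (0.5638), Notch1 (0.9224), Dll1 (1.197), Galnt2 (0.8867), Galnt11 (0.9046), C1galt1c1 (0.9379) and Gcnt3 (0.9553) turned.

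Normexp correction called 0 of the genes and 0 of the probes in limma (Tff3 -1.621 and -1.644, Agr2 -0.1011, Spdef -0.4459), with 2 probes at an unadjusted p under 0.05. It called 1 secreted mucus, 1 enteroendocrine, 1 leukocyte and 1 proliferation gene and 0 of every other list, and it turned Clca1 (0.6419), Muc20 (-1.009) and St6galnac2 (-0.1927). The cause was not tested.

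By its own labels the deposited table turned Tff3 (0.8781 and 1.23), Spdef (0.7331), Zg16 (0.7), Tff1 (-1.603), Ern2 (1.26), Slc12a8 (-0.9923), Muc20 (-1.439), Cdhr5 (0.03853), Gfi1 (-0.7364), Elf3 (1.28), Notch1 (1.408), Dll1 (0.7154), Galnt2 (0.5858), Galnt7 (-1.003), Galnt11 (0.8918), C1galt1 (2.506), C1galt1c1 (0.6256), Gcnt3 (0.4386), St6galnac2 (-0.8113) and Tff2 (-0.1548). Agr2 (-0.07533) and Clca1 (-0.8286, called lower) kept their sign, and 1 transmembrane mucin, 4 enterocyte and 2 Paneth genes were called.

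Same-numbered samples shared only a number (correlations of their deviations 0.0204, 0.0216 and -0.0491). With the replicate number as a block, 3 genes and 4 probes were called, with adjusted p from 0.00064 to 0.0042, 1 proliferation gene was called, and 16314 probes in all against 16452. The methods' analysis of variance passed all 4 probes, with 22659 of 31137 probes under the threshold and 21631 after Benjamini-Hochberg, and 1 proliferation gene. The slide could not be fitted as a block, since no slide held both groups.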
